A study of Drosophila melanogaster with 12 samples.

Results

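The transcripts of Drosophila larval organs kept in culture without added hormone were described from the 3 arrays labelled as non-treated controls, out of 12 arrays in the series. The organs came from wandering larvae of the third instar, of the w1118 strain (the strain that the study's methods give for its array work), with partly blue guts, a stage about 8 h before pupariation. Each well pooled the organs of 8 animals, which rested for 1 h at 25 °C in about 100 µl of Schneider's insect medium under oxygen. This medium was then exchanged for 6 h of culture with neither 20-hydroxyecdysone nor cycloheximide. The 3 cultures, called replicates 1, 2 and 3, were set up and harvested separately, and each gave 1 Affymetrix Drosophila Genome Array. The labels name the source as the whole animal in one field and as cultured organs in another, and they give neither the sex of the animals nor a list of the organs taken. All the values below are linear intensities from the dChip program, in which 1 value stands for 1 probe set, the group of oligonucleotides that reports a transcript. No groups were compared, so the text gives levels with their spread over the arrays (SD, n = 3) and no test.

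At the end of the third instar the Drosophila larva stops feeding, leaves the food and wanders before it forms a puparium. During the instar its midgut secretes digestive enzymes, its fat body fills the hemolymph with storage proteins, and its salivary glands make the glue that fixes the puparium to a surface. A rise of 20-hydroxyecdysone at the end of the instar, acting through the EcR and usp receptor pair, switches on the early puff genes and closes this program. The cultures described here were dissected before the end of the instar and then held without the hormone.

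The 13966 probe sets spanned a wide range of intensity. The median intensity was 116 on replicate 1, 118 on replicate 2 and 114 on replicate 3, and the brightest value was 16324, 13836 and 15929. The middle of the distribution was narrow, since the mean intensities at the 25th and 75th percentiles were 65.3 and 204, whereas those at the 5th and 95th were 28.8 and 552, a 19.2-fold range. Only 320 probe sets (2.29%) had a mean above 1000. The brightest 10% of the probe sets, 1397 in all, began at a mean of 354.6, with the next probe set at 354.4, so its lower edge is a ruler and not a break in the data. This part held 50.5%, 49.1% and 49.6% of the summed intensity of the 3 arrays. The brightest 140 probe sets alone, with means of 2598 and above, held 21.9%, 21.2% and 21.3%.

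**Figure D1:**
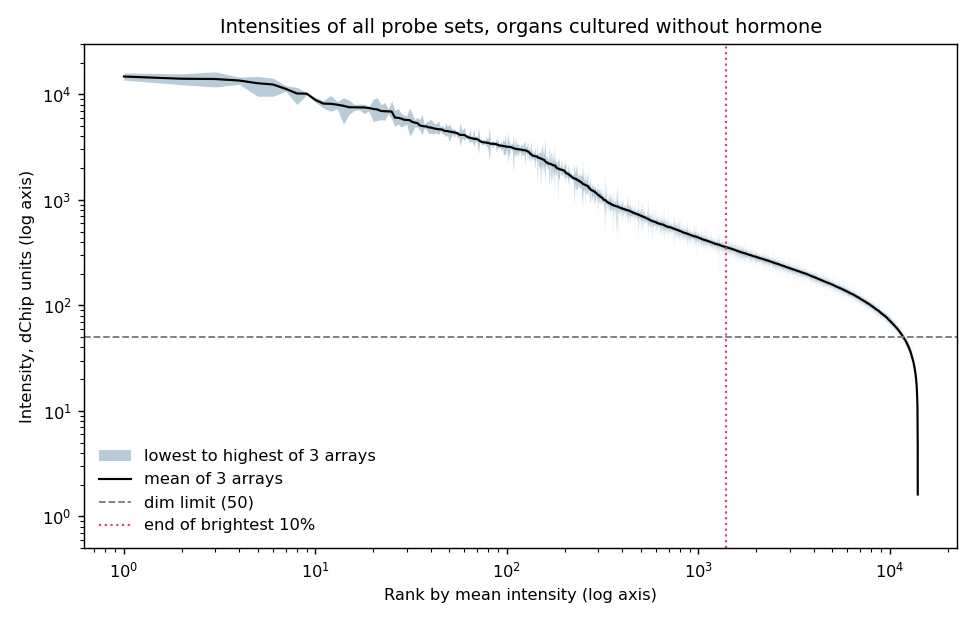
Mean intensity of every probe set against its rank, both on log axes, with the range from the lowest to the highest of the 3 arrays shaded. The curve falls from 14748 through the edge of the brightest 10% at 354.6 (dotted line) to the dim limit of 50 (dashed line), below which 1932 probe sets lay on every array.

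At the lower end, 1932 probe sets (13.8%) lay under an intensity of 50 on all 3 arrays and are called dim here. A larger number, 2543, were dim on at least 1 array. The deposited table has no detection calls, so a dim probe set is not shown to lack its transcript. The 3 arrays were close to each other: the correlation of log2 intensities across probe sets was 0.990, 0.988 and 0.988 for the 3 pairs, the median difference between any pair of arrays was 0.12 on the log2 scale, and at most 8 probe sets had identical values on a pair. No array stood apart.

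The order of probe sets by intensity is not an order of transcript numbers, because probe sets differ in how well they bind. The size of this limit can be read from the 1221 genes measured by more than 1 probe set. Their brightest and dimmest probe sets differed by 2.39-fold at the median (1.25 on the log2 scale), 323 of these genes (26.5%) differed by more than 4-fold, and 24 had a probe set in the brightest 10% and another that was dim. ClC-a, a chloride channel gene, shows the problem: 1 of its probe sets had a mean intensity of 3314 and the other two 51.1 and 44.1. The brightest probe set of each gene was used to place it, and 11028 genes were placed in this way. Of these genes, 10.8% lay in the brightest 10% of probe sets and 11.9% were dim on all arrays, and every count of list members below is to be read beside these shares.

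Most of the 30 brightest probe sets with 1 gene name belonged to the salivary gland, the midgut, the fat body and the cuticle. Of the brightest 140, 43 had no name in the tables used here, 5 were assigned to several genes and 13 had a name but no role given to them. The remainder were led by 25 genes for ribosomal proteins and translation and 18 for digestive proteases and lysozymes, followed by 11 immune genes. The 18 digestive genes held more of the summed intensity (4.26%) than the 25 translation genes (2.96%). The 43 unnamed probe sets held more than either (5.50%), so this order could depend on which probe sets had a name. The digestive share also includes lysozyme probe sets that may read the same transcripts, and RpL40 and RpS27A were counted with ubiquitin. Probe sets shared within a gene family, whose names end in _f_at, are 53 of all and 12 of the brightest 140. Of them, 56.6% were in the brightest 10%, against 9.60% of those with the plain suffix _at. The salivary gland, the fat body, the cuticle and ubiquitin had 4 probe sets each, and chaperones had 3. These roles were assigned after the intensities had been seen.

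**Figure D2:**
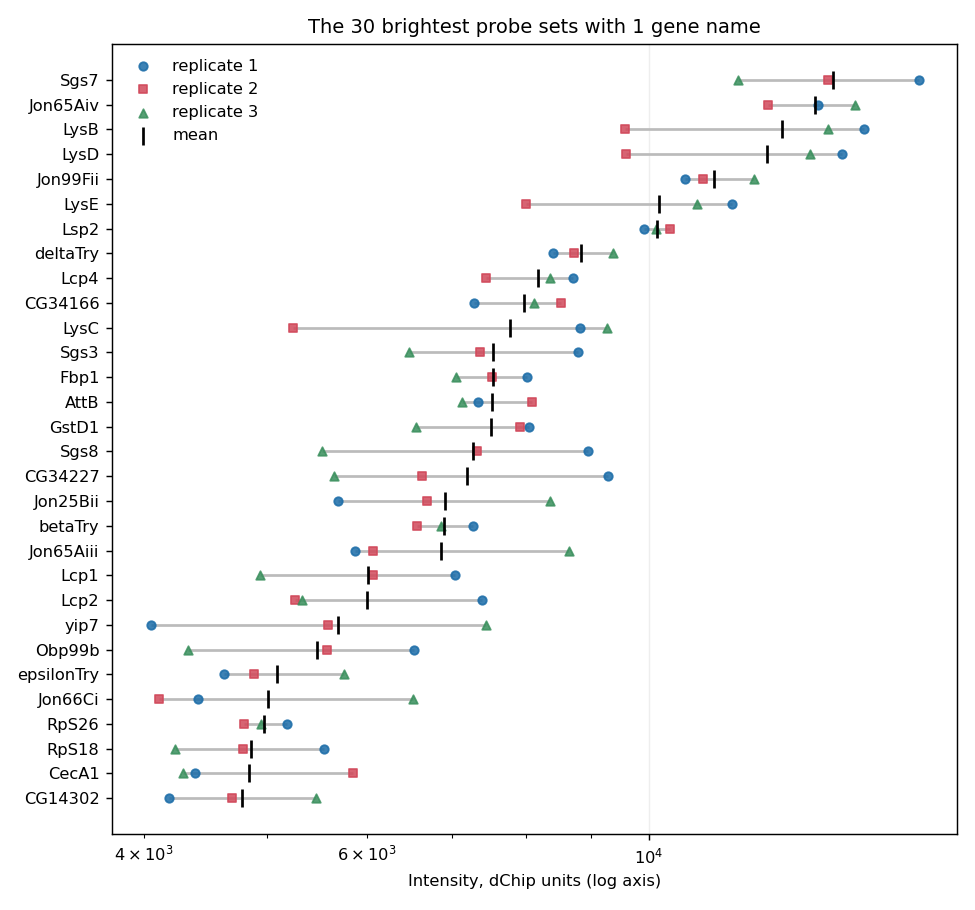
Intensities of the 30 brightest probe sets with 1 gene name on the 3 replicate arrays (log axis), with the mean as a black bar. Sgs7, Jon65Aiv and LysB are at the top, and the 3 values of most genes overlap those of the genes next to them.

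The ranks at the very top were mostly not separated by the ranges of the 3 arrays. Among the brightest 40 probe sets, 38 of the 39 neighbouring pairs overlapped in their values. This comparison does not pair the values by array, so an overlapping pair can still keep 1 order on every array. The probe sets at ranks 1 and 2 did so, with 14663, 13652 and 15929 against 14168, 12336 and 15658.5. The one gap lay below Lsp2, whose lowest intensity of 9920 was above the highest of the next probe set, deltaTry, at 9376. Membership of the top group was more stable than the order within it. Of the brightest 140 probe sets by mean, 128, 134 and 132 were among the brightest 140 of the single arrays and 122 of every array.

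The salivary gland list contained 12 measured genes of 16, of which 8 were in the brightest 10%, where 10.8% of all genes lay, and 1 was dim. Sgs7, which encodes a small glue protein, was the brightest probe set with a single gene name, with intensities of 16324, 13836 and 11752 on replicates 1, 2 and 3. Sgs3 and Sgs8, glue genes that lie beside it, read 8789, 7368 and 6475, and 8958, 7326 and 5531. All 3 genes were highest on replicate 1 and lowest on replicate 3. Of the other glue genes, Sgs5 was highest on replicate 2 (4700, 5237 and 4265), Sgs4 was lowest there (2788, 1994 and 2676), and Sgs1 had a mean of 642 ± 87.9. Sgs5bis had the same order as Sgs7 but lay furthest apart between cultures, with 1871 on replicate 1 against 665 and 458 on the others. Below these secreted products lay the gland's regulators, the transcription factor genes sage (257 ± 16.3) and fkh (198 ± 23.1). ng4, named as a new glue gene, was dim at 42.5 ± 4.66, while its relative ng3 reached 579 ± 160.

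In the midgut list, 26 of 44 digestive enzyme genes (59.1%) were in the brightest 10% and none was dim. Its median intensity was 614, against 125 for all genes. The Jonah genes, which encode chymotrypsin-like serine proteases of the gut, were led by Jon65Aiv at 13579, 12422 and 14532, followed by Jon99Fii at 10670, 11032 and 12090. The Jon99Fii probe set is shared within its gene family and may also read related transcripts. The digestive lysozymes lay in the same range: LysB read 14781, 9579 and 13840, LysD 14193, 9593 and 13399, and LysC 8822, 5241 and 9277. These lysozyme probe sets were all lowest on replicate 2, but they carry the suffix that marks probes shared within a gene family, so they may be reading the same transcripts. LysS, with a probe set of its own, differed from them and was highest on replicate 3 (2293, 3206 and 4795). Among the trypsins, betaTry had a mean of 6898 ± 348 and epsilonTry of 5092 ± 590, while deltaTry (8838 ± 493) cannot be separated here from its near-identical relatives. The enzymes of carbohydrate digestion were far lower. Amy-d, an alpha-amylase gene, had 743, 1456 and 397, and the related gene Amyrel was the dimmest of the list at 52.7 ± 3.11.

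Fat body genes formed a shorter list, with 8 of 13 measured genes in the brightest 10% and none dim. Lsp2, a larval serum storage protein, was among the most even of the bright probe sets, with 9920, 10384 and 10129 on the 3 arrays. Fbp1, the receptor through which the fat body takes storage proteins back up, had 8023, 7526 and 7053. Obp99b, a member of the odorant-binding protein family, was less even at 6531, 5580 and 4337. Fbp2, related to alcohol dehydrogenase, had a mean of 2957 ± 456, and Pepck1, an enzyme of gluconeogenesis, 2280 ± 231. Genes of lipid handling were lower: apolpp, the precursor of the lipophorin carrier, read 566, 717 and 1051, the lipid droplet genes Lsd-1 and Lsd-2 averaged 415 ± 114 and 274 ± 18.4, and the lipase gene bmm 212 ± 5.34. FASN1, fatty acid synthase, had a mean of 157 ± 21.6 and Gnmt, which methylates glycine, was at 49.7 ± 9.89. Lsp1alpha, Lsp1beta and Lsp1gamma, the other storage protein genes of the list, were not analysed here.

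The muscle list had 11 of 17 measured genes in the brightest 10% and 1 dim, with a median of 409. Act87E, an actin gene whose probe set may also read other actins, was the brightest at 2819, 3214 and 2765. Mp20, a muscle protein gene, followed at 1793 ± 89.9. The myosin light chain genes Mlc2 (1105, 1409 and 2208) and Mlc1 (483, 618 and 978) were both highest on replicate 3, and the thin filament gene Tm2 (365, 382 and 479) had the same order. The filament genes Prm, Mf and TpnC73F averaged 524 ± 73.5, 845 ± 34.0 and 809 ± 26.1. The giant protein genes sls and bt were low by comparison, at 168 ± 16.3 and 55.5 ± 12.9, and each of them had further probe sets that were dimmer still. Genes of the adult flight muscle were not bright. The 4 genes of that list had a median of 58.2, none was in the brightest 10%, and TpnC4 was dim at 30.9 ± 5.52. The exception was Act79B (314 ± 21.7), whose probe set also carries the family suffix.

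Nervous system genes were mostly at or below the typical gene. Of 27 measured genes of neurons and glia, 1 was in the brightest 10% and 8 were dim (29.6%), and the median was 95.6. Gs2, glutamine synthetase, stood alone at 958, 741 and 822, and this enzyme is not limited to glia. It was followed by the vesicular monoamine transporter gene Vmat (327 ± 13.9), the glial genes loco (292 ± 16.5) and moody (250 ± 9.12), and Appl (199 ± 19.2) and nSyb (196 ± 7.54), which act in neurons and at the synapse. The genes most used to define the tissue were among the lowest: the pan-neuronal gene elav had 42.9, 44.0 and 49.9, the pan-glial gene repo 24.3, 28.1 and 26.8, Syn 16.1, 21.1 and 15.9, and Syt1 12.0, 11.8 and 11.4. In RNA from mixed organs, fewer cells of a type and less RNA per cell cannot be told apart.

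Testis genes were measurable above the dim limit for most of the list, and the labels name no sorting of the larvae by sex. Of 33 measured genes, 6 were in the brightest 10%, 3 were dim and the median was 150. The brightest was Mst84Dd, of the Mst84D genes, which encode small cysteine-rich proteins of the sperm tail and are transcribed in the male germline. Mst84Dd had 1126, 653 and 625, Mst84Dc 844, 642 and 574, and Mst84Da 692, 439 and 408. Of the related genes, Mst98Ca was at 739 ± 70.6 and Mst87F at 452 ± 131. betaTub85D, the testis-specific beta-tubulin, read 225, 151 and 124. Of the genes that act in germ cells before meiosis, bgcn was at 129 ± 12.8 and bam at 32.6 ± 3.29. The regulator gene aly averaged 218 ± 7.15, and djl was the dimmest of the list at 17.4 ± 4.62. Of the 7 genes of the germline list, 4 were dim, among them vas (36.2 ± 1.49) and piwi (37.5 ± 1.74), and tud was the brightest at 346 ± 24.8.

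**Figure D3:**
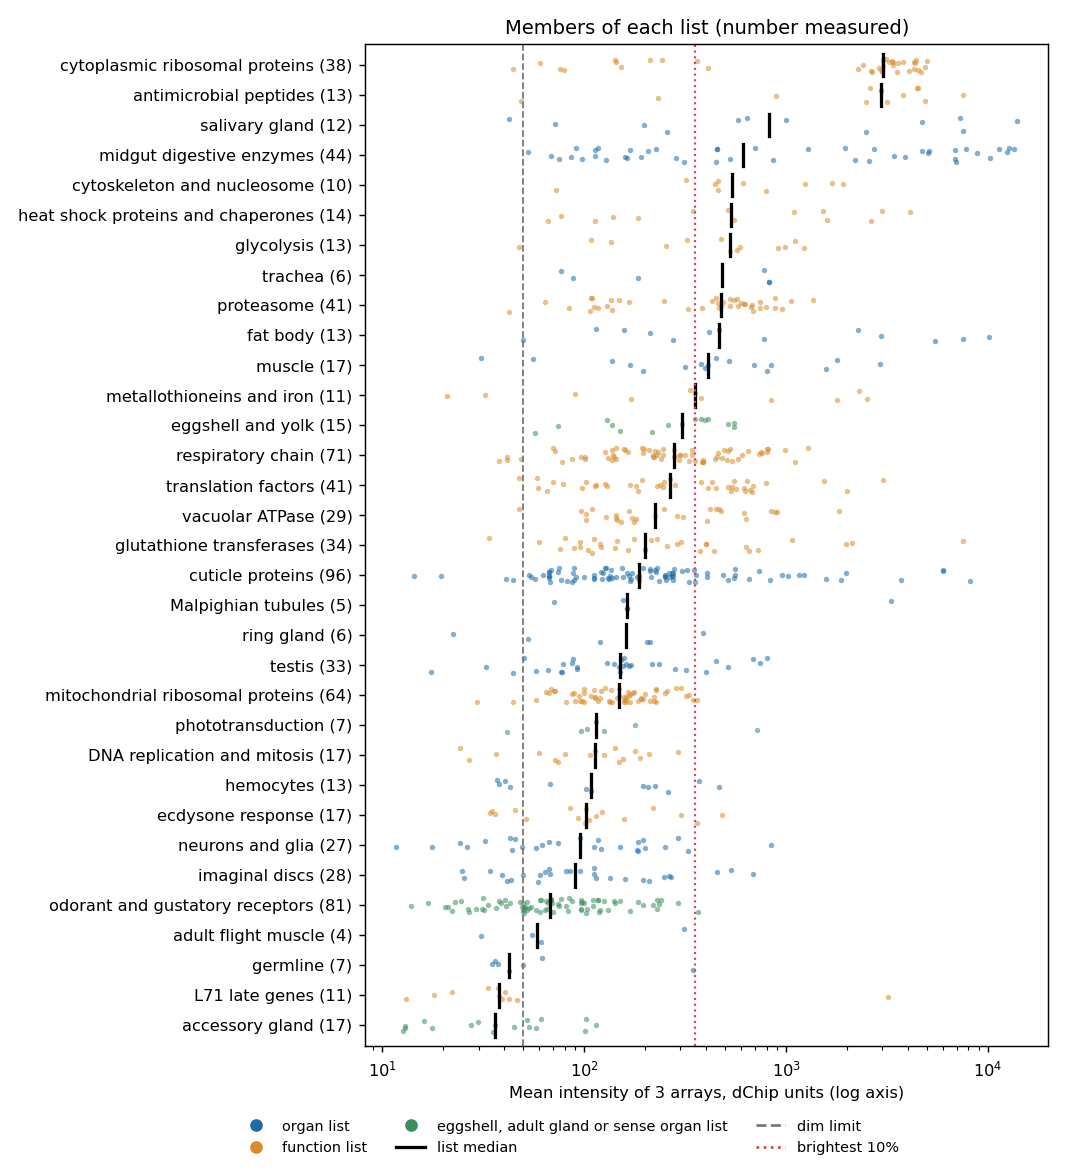
Mean intensities of the measured members of the 33 lists (log axis), with each list's median as a black bar, the dim limit of 50 as a dashed line and the edge of the brightest 10% at 354.6 as a dotted line. Cytoplasmic ribosomal proteins and antimicrobial peptides have the highest medians (3013 and 2954) and the accessory gland the lowest (36.01).

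Smaller organs were read through few genes. Imaginal disc genes, most of them transcription factors and signals of patterning, had 3 of 28 in the brightest 10% (10.7%, near the 10.8% of all genes) and 5 dim. The brightest were ImpL2 (685 ± 93.3), a secreted binding protein of insulin-like peptides, and ImpE2 (536 ± 4.38), an ecdysone-inducible gene, while the signals hh and wg were dim at 41.5 ± 1.67 and 24.9 ± 2.89. Hemocyte genes split: Col4a1, a basement membrane collagen that fat body also makes, had 427, 423 and 546, PPO3 369 ± 24.1 and Hml 260 ± 13.1, whereas eater, NimC1, srp and lz, 2 receptors and 2 transcription factors, were all dim. Of the 6 tracheal genes, the chitin deacetylase genes serp and verm had means of 823 ± 84.1 and 819 ± 49.8, and btl, the receptor that guides branching, had 88.3 ± 5.70. In the ring gland, which makes the steroid, sad (390 ± 50.7) and dib (217, 228 and 168) encode enzymes of ecdysone synthesis, and jhamt, an enzyme of juvenile hormone synthesis, was dim at 22.5 ± 1.34. Apart from ClC-a, the Malpighian tubule genes ranged from 70.9 (Alp4) to 163 (Irk3).

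Cuticle proteins formed the longest organ list. Of 96 measured genes, 22 were in the brightest 10% (22.9%) and 4 were dim, and the median was 187. Of the larval cuticle genes, 3 were at the top, with Lcp4 at 8712, 7443 and 8364, Lcp1 at 7034, 6065 and 4938, and Lcp2 at 7383, 5268 and 5332. Others of that name were far lower, from Lcp3 at 559 ± 135 down to Lcp65Af, which was dim. Cpr49Ac read 4935, 3451 and 2737, and Cpr47Eb was low on replicate 1 only (955 against 2546 and 2451). The list ended with Cpr67Fa2 at 14.3 ± 3.18.

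Lists for organs or products of the adult fly were not uniformly dim. Of 17 accessory gland genes of the adult male, 9 were dim and none was in the brightest 10%, with Acp76A at 12.7 ± 0.416 and Acp62F the highest at 112, 103 and 129. Of 81 odorant and gustatory receptor genes, 20 were dim and 1, Gr8a (367 ± 57.2), was in the brightest 10%. Eggshell and yolk genes gave another picture. Of 15 measured genes, 6 were in the brightest 10% and none was dim, although the chorion genes among them act in the ovary of the adult fly. Yp3, a yolk protein gene, had 552, 620 and 484, and the chorion genes Cp18 and Cp15 had 600, 528 and 523, and 491, 533 and 521. The median of this list (304) was above that of the testis list (150). Intensities of this size were thus measured for genes whose described site of action is the adult.

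The basic functions of the cell were read most brightly in translation. Of 38 measured cytoplasmic ribosomal protein genes, 29 were in the brightest 10% and 1 was dim, with a median of 3013. RpS26 had 5183, 4796 and 4945, RpS18 5553, 4791 and 4237, and RpL17 4862, 4468 and 4644. The genes at the foot of the list were mostly second copies or relatives, such as RpL10Aa (44.4 ± 3.72), RpS10a (60.7 ± 4.27) and RpS28a (144 ± 28.0). RpS29 was the one member of the foot, at 152 ± 15.8, whose name marks no second copy. Mitochondrial ribosomal protein genes were far dimmer, with 1 of 64 in the brightest 10% and a median of 149. Translation factors had 19 of 41 in the brightest 10%, led by the helicase gene eIF4A (3018 ± 382).

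Other housekeeping lists lay between. The proteasome had 26 of 41 genes in the brightest 10%, from Prosalpha2 (1522, 1242 and 1312) down to Prosbeta4R2 (42.7 ± 5.52), and the genes at the bottom had names with an R or T, given to related copies. The respiratory chain had 25 of 71, led by cype (1286 ± 93.6), a subunit of cytochrome c oxidase, and ended with COX7AL (37.8 ± 3.82). The vacuolar ATPase had 11 of 29, led by Vha16-1 (1825 ± 289), and glycolysis 8 of 13, led by Gapdh1 (1231 ± 141). None of the 17 genes of DNA replication and mitosis was in the brightest 10%. CycB, a mitotic cyclin, was the brightest of them at 292 ± 15.2, and CycE (27.0 ± 3.24) and Mcm6 (24.2 ± 1.73) were dim.

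Antimicrobial peptide genes were bright, although the protocol names no microbe. Of 13 measured genes, 11 were in the brightest 10% and none was dim on all arrays, with a median of 2954. These short secreted peptides are made mainly by the fat body when the Toll and Imd pathways are active. AttB, an attacin whose probe set carries a suffix for shared probes, had 7342, 8093 and 7130, CecA1, a cecropin whose probe set also reads related copies, 4394, 5848 and 4293, and DptB, a diptericin, 5229, 4556 and 3532. Def (3177 ± 535), Drs (2953 ± 733), Dro (2598 ± 647) and Mtk (2494 ± 461) overlapped in their values. Drsl5, a gene of the drosomycin family, was the dimmest at 48.8 ± 4.16.

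Stress and detoxification genes were also well represented. GstD1, a glutathione transferase, had 8052, 7916 and 6550 and was followed in its family by GstE1 (2124 ± 443), and 11 of 34 genes of this list were in the brightest 10%. Hsp26, a small heat shock protein, read 5405, 3794 and 3190, Hsc70-4, the main constitutive chaperone, 3384, 3068 and 2493, and Hsp83 2953, 2489 and 2415. The stress-inducible gene Hsp68 had 1265, 914 and 1121. Ferritin was read through Fer2LCH (2504 ± 299) and Fer1HCH (1794 ± 43.2), and the metal-binding gene MtnA had 2309 ± 228, whereas its relative MtnC was dim (34.3, 32.5 and 30.6).

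Genes of the ecdysone response were near the typical gene without hormone. Of 17 genes, 2 were in the brightest 10%, 3 were dim and the median was 103. The receptor gene EcR had 279, 329 and 296, and its partner usp 94.8, 111 and 96.5. Among the early genes, Eip75B was at 456, 446 and 548, br at 157 ± 6.21, and Eip74EF at 47.5, 33.2 and 28.0. ftz-f1, which is expressed later, in prepupae, averaged 34.3 ± 4.67. The L71 late genes, a cluster of small secreted peptides induced in the salivary gland after the early genes, were almost all off the bright part of the scale, with 9 of 11 dim and a median of 38.03. Eig71Ee, of the same cluster, read 3539, 3192 and 2801, and whether it is induced late like the others was not examined here.

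Some of the brightest genes were neighbours on the chromosome. Of the 91 named genes among the brightest 140 probe sets that had a place in the RefSeq annotation, 31 lay in 12 runs of close neighbours, a run being genes no more than 3 places apart. The same share among all genes was not computed. The longest was the lysozyme run on arm 3L, with LysB, LysD, LysE and LysS. The glue genes Sgs8, Sgs7 and Sgs3 formed another on 3L, as did yip7, Jon65Aiv and Jon65Aiii. On 2R lay Lcp1, Lcp2 and Lcp4, and Dro, AttA and AttB, and on 3R RpS7 stood beside CecA1 and CecA2. Members of such runs are often copies of 1 gene, and some of their probe sets can read each other's transcripts.

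The least bright named probe sets did not represent 1 organ. CG6040 was the lowest, with 2.06, 0.80 and 1.97, followed by HP5 (3.21, 2.79 and 1.49) and Pabp2 (5.24, 0.78 and 3.75), a poly(A)-binding protein gene that all cells use. Also among the 20 dimmest were tim, a clock gene (2.80, 3.19 and 5.56), caz, which encodes an RNA-binding protein (5.62, 4.36 and 5.94), and ex, a growth regulator (7.25, 5.03 and 6.06). Placed by its brightest probe set, no gene had a mean below 6.33. CG6040, HP5, Pabp2, tim, caz and ex therefore each had another, brighter probe set, and these low values do not place the genes. Genes of neurons were among them as well, such as the transcription factor gene unc-4 (6.60, 4.95 and 7.44) and Oct-TyrR, an amine receptor gene (9.10, 7.48 and 5.76). Mitf was represented by both of its probe sets. GstO2 was also among them with 1 probe set at 8.19, 5.30 and 8.57, but another of its probe sets averaged 301 ± 24.0. Probe sets for which the rules of probe choice were relaxed, whose names end in _r_at, are 106 of all and 17 of the 100 dimmest. They were frequent at the bright end too, with 31.1% in the brightest 10%, against 9.60% of those with the plain suffix _at. For the dim ones the low value cannot be told apart from poor binding.

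The 3 cultures differed from each other in groups of genes. Most probe sets were even: of the 7933 with a mean of at least 100, 307 differed by more than 1.5-fold between the highest and the lowest array and 48 by more than 2-fold, of which 12, 18 and 18 were highest on replicates 1, 2 and 3. Among the brightest 140 the median was 1.21-fold. All genes were highest on replicates 1, 2 and 3 in 3842, 4219 and 2967 cases. Some lists departed from this split. Of 33 testis genes, 23 were highest on replicate 1, 8 on replicate 2 and 2 on replicate 3. Midgut enzymes went the other way, with 6, 6 and 32 of 44, and muscle genes with 1, 5 and 11 of 17. Of 13 antimicrobial peptide genes, 2 were highest on replicate 1 and 11 on replicate 2. Departures were not limited to larval organs and functions. The odorant and gustatory receptor genes, grouped above with lists of the adult fly, had 15, 50 and 16 of 81.

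**Figure D4:**
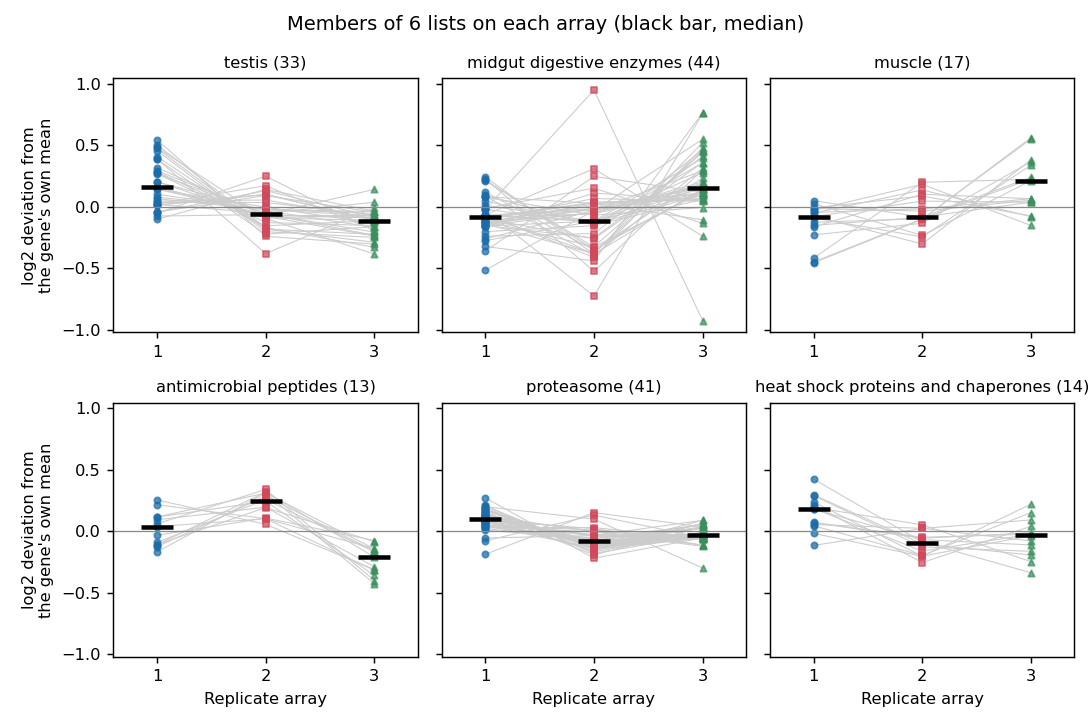
Deviation of each member of 6 lists from its own mean over the 3 arrays (log2 scale), with grey lines joining the values of 1 gene and black bars at the medians. Testis, proteasome and chaperone genes lie highest on replicate 1, antimicrobial peptides on replicate 2, and midgut enzymes and muscle on replicate 3.

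The sizes of these shifts were small for the median gene. Testis genes deviated by 0.16, -0.06 and -0.11 on the log2 scale, midgut enzymes by -0.09, -0.12 and 0.15, muscle genes by -0.08, -0.08 and 0.21, and antimicrobial peptides by 0.04, 0.24 and -0.21. Housekeeping lists moved too, since 34 of 41 proteasome genes and 11 of 14 chaperone genes were highest on replicate 1. Of the genes with a mean of at least 100, the most variable 10% contained 21 of 38 midgut enzymes, 10 of 20 testis genes and 10 of 12 antimicrobial peptides. It contained none of the 13 neuronal and glial, 13 imaginal disc or 8 hemocyte genes. In lists this short, a count of none is near the 10% share of all genes and does not mark them as more even. With the 3 arrays brought to the same distribution by quantile normalization, the testis counts were 24, 7 and 2 and the midgut counts 5, 8 and 31. The muscle counts were then 0, 5 and 12, the antimicrobial counts 2, 11 and 0 and the odorant and gustatory receptor counts 15, 45 and 21. The cytoplasmic ribosomal proteins, by contrast, changed from 25, 8 and 5 of 38 to 16, 8 and 14, while centring each array on its median left them at 25, 7 and 6, so their excess on replicate 1 was lost under 1 of the scalings. Under the same scaling 28 of 41 proteasome genes and 10 of 14 chaperone genes were highest on replicate 1. The organs of 8 animals were pooled in a well, and what part the amounts of each organ had in these differences was not tested.

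**Figure D5:**
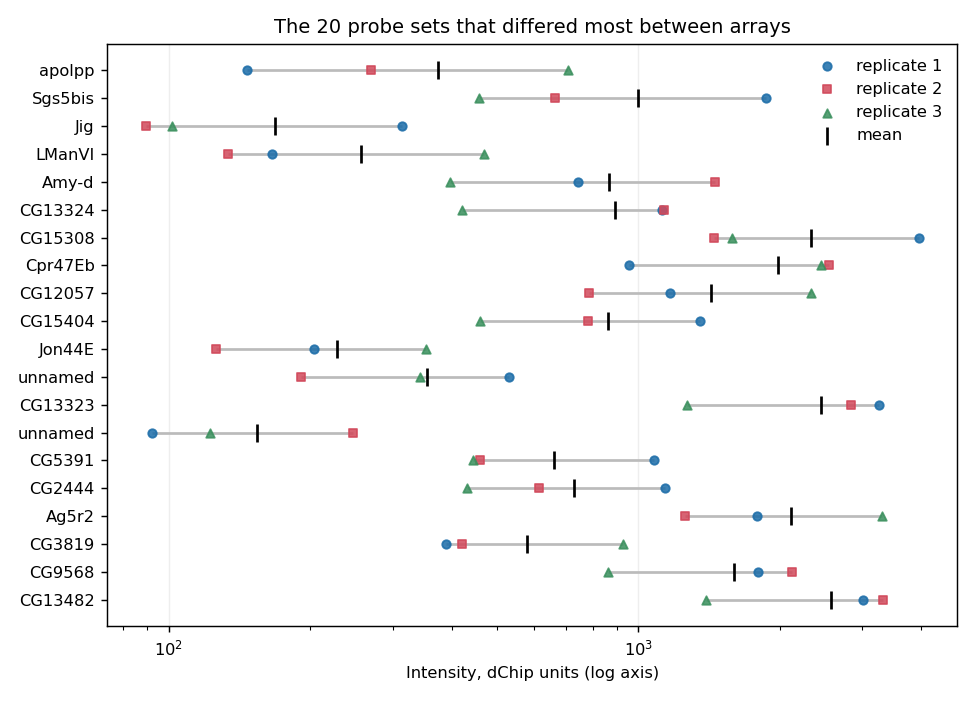
Intensities on the 3 arrays (log axis) of the 20 probe sets with a mean of at least 100 that differed most between arrays, ordered by the SD of log2 values, with the mean as a black bar. The second probe set of apolpp spans 146 to 708 and Sgs5bis 458 to 1871.

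The single probe sets that differed most came from several organs. The second probe set of apolpp had 146, 270 and 708, in the same order as the first one. Sgs5bis, described above, came next, followed by Jig (314, 89.3 and 102) and LManVI, a lysosomal mannosidase gene (166, 134 and 469). Amy-d of the midgut list was lowest on replicate 3, while the Jonah gene Jon44E (204, 126 and 352) was highest there. Of the genes given no role, CG15308 read 3957, 1448 and 1581, CG12057 1166, 786 and 2337, and Ag5r2, of the antigen 5 family, 1785, 1255 and 3309. CG13324, CG9568 and CG13482 shared another order and were highest on replicate 2 and lowest on replicate 3, with 1120, 1137 and 422, 1802, 2126 and 862, and 3011, 3325 and 1390.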

How the data were processed

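The deposited values are linear intensities that the authors obtained by normalizing the arrays with dChip 1.2, which gives 1 value per probe set. The baseline array and the use of mismatch probes are not given in the sources used here. Of the 13966 probe sets, 12442 were named for 1 gene through the platform annotation and 198 through gene names in the study's additional data files. A further 327 belonged to several genes and 999 had no name here, and neither was named. Of 2132 probe sets that both sources name, 97.9% had the same gene.

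The 3 arrays were averaged, and log2 values were taken after setting intensities under 10 to 10 (42, 49 and 54 probe sets on replicates 1, 2 and 3). A gene was placed by its brightest probe set. Neighbours came from the RefSeq annotation of assembly Release 6 plus ISO1 MT. Python 3.11.15, pandas 2.3.3 and numpy 2.4.6 were used, and the ranking and counting were tested on simulated data.

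The genes named were taken from the brightest 40 probe sets, the 20 dimmest with 1 name and the 20 most variable of any naming. Members of 33 lists were named too, each list by its 4 brightest, its dimmest and others where a list is described. The members and lists were chosen with earlier results of these data known. Alternatives were other floors, limits, averages, scalings and probe set choices, and each array left out.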

Additional observations from a re-analysis of the deposited data

How the results depend on the processing

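No paired analysis was possible because only 1 group was described. The dim count depended on its limit: 638 probe sets were dim with a limit of 30 and 5574 with a limit of 100, and 28 and 233 list genes, against 87 at 50. With only plain probe sets of exactly 1 gene, 75 of the brightest 140 were shared. All the others had no single name or another suffix and were removed by this choice itself, so the count does not measure how stable the ranking was. The brightest 5% held 699 probe sets. Without 1 array, 2025 to 2059 probe sets were dim, 1355 to 1364 of the brightest 10% and 135 to 138 of the brightest 140 were shared, 262 to 267 list genes were in the brightest 10% and 90 to 95 were dim, and 22 lists had a median above that of all genes. Between 19 and 24 lists then had a median SD above that of all genes. For single lists, 60 of 495 counts of dim genes, 33 of 528 counts in the brightest 10%, 50 of 528 medians and 7 of 528 median SDs moved under an alternative, as did 41 of 1028 intensities of named genes. These totals pool all alternatives, and a few of them held most of the moves. With a gene placed by its dimmest probe set, 16 of 33 list medians moved, and with the mean over its probe sets 9 of 33. Leaving out dim probe sets moved 11 of 33 medians. With dim limits of 30 and 100, 22 and 27 of 33 dim counts moved. Counting dim genes after leaving out dim probe sets gives no value. The quantile-normalized counts by array were added after seeing the data. With 3 arrays and no detection calls, saturation and background could not be separated from level.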
